A study of Mus musculus with 72 samples.

Results

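A set of 3569 sites was defined as open-chromatin peaks of mouse microglia at which all 3 factors of the MiT/TFE family, MITF, TFEB and TFE3, scored high in wild-type (WT) nuclei and for which oligodendrocytes showed no matching signal. They were 3.89% of the 91770 microglial peaks for which factor values were deposited. The score of a factor was log2((factor + 1)/(input + 1)) in tags per 10M tags of the library, and all 3 WT scores had to be at least 2. Of the 4374 microglial peaks that met this, 239 also scored at least 2 for every factor at an oligodendrocyte peak with its centre within 200 bp. These are called shared sites below. Another 566 had intermediate oligodendrocyte scores and were set aside. For 3461 of the 3569 sites, no oligodendrocyte peak centre lay within 200 bp. In the other 108, the oligodendrocyte peak scored below 1 for each factor in WT. The WT factor, WT input and oligodendrocyte WT values chose the sites, so they are given as a description and not tested.

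The name microglia-only therefore has a limit. Where oligodendrocytes had no peak, the deposited oligodendrocyte table holds no factor value, and binding there was not measured. Factor binding in neurons was not analysed here. At the 108 sites with a low-scoring oligodendrocyte peak, SgshKO oligodendrocytes, whose pools took no part in the choice, had median scores of 1.26 for MITF, 1.17 for TFEB and 1.32 for TFE3. There, 43, 31 and 42 of the 108 scored at least 2, which is 39.8%, 28.7% and 38.9%, against 47.1%, 44.7% and 48.9% of all oligodendrocyte peaks. The sites are thus microglia-only by WT score.

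Nuclei came from the forebrain of C57BL/6 mice, either WT or lacking Sgsh (SgshKO), and no other allele or treatment is given in the labels. They were sorted for PU.1 (microglia), Olig2 (oligodendrocytes) or NeuN (neurons), each without the other markers used in the sort. H3K27ac, histone H3 acetylated at lysine 27, was measured in WT and SgshKO microglia at 4 and at 8 months of age, with 2 libraries in each of the 4 groups. MITF, TFEB and TFE3 were measured in 3 WT and 2 SgshKO microglial libraries each, and in 2 libraries per genotype in oligodendrocytes, with no age given. The deposited factor tables hold each factor and genotype as 1 merged pool. Factor values therefore have no replicate error, no test was made of them, and their 95% Poisson intervals cover counting error only. The labels do not say whether H3K27ac replicates came from separate animals, so p-values measure the spread between these samples, which may be technical. Because nuclei were profiled in bulk, fewer nuclei of a kind and less acetylation per nucleus cannot be told apart.

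MITF, TFEB and TFE3 are basic helix-loop-helix leucine zipper factors that bind E-box sequences such as CACGTG and switch on genes of lysosomes and autophagy. When the kinase complex mTORC1 is active at the lysosome, they are held in the cytoplasm, and lysosomal stress or starvation lets them enter the nucleus. Sgsh encodes sulfamidase, a lysosomal enzyme of heparan sulfate breakdown, and its loss causes the storage disease mucopolysaccharidosis type IIIA. Microglia are the resident macrophages of the brain, with enhancers opened by PU.1 and its partners, and they carry a heavy lysosomal load. H3K27ac marks active promoters and enhancers.

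For 4 sites at promoters of microglial genes, the part of the site inside the RefSeq promoter window is shown, since bases were at hand only inside such windows. C1qb and C1qc encode chains of the complement protein C1q, Cd68 a lysosomal membrane protein of macrophages, and Nlrp3 an inflammasome sensor. The bases are RefSeq's for GRCm38.p6, 5′ to 3′ on the strand of the gene, and lie before its start site. Capitals mark matches to the motifs described below.
C1qb, chr4:136886201-136886394, minus strand: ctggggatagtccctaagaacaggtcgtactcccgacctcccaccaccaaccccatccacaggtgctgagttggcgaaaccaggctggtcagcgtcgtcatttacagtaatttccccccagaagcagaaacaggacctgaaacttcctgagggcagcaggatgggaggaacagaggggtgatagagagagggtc
C1qc, chr4:136892969-136893164, minus strand: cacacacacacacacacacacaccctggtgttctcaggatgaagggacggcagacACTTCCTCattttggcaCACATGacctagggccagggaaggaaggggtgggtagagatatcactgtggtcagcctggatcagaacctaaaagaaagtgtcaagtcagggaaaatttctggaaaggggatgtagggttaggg
Cd68, chr11:69666171-69666368, minus strand: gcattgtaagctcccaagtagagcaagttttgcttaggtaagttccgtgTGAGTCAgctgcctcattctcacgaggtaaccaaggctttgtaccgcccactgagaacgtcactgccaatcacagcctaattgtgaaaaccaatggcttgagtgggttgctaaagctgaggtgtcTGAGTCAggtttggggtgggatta
Nlrp3, chr11:59541408-59541568, plus strand: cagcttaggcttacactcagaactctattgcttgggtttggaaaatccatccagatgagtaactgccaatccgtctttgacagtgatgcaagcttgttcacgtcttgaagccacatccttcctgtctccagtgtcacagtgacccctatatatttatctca

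The stretch of C1qc held the letters of GAGGAAGT and of CATGTG on the opposite strand, and that of Cd68 held TGAGTCA in 2 places, while C1qb and Nlrp3 held none of the 4 motifs searched. Neither did the stretches of Runx1 and Fcgr2b, which were taken out in the same way and are not shown. GAGGAAGT is the classical PU.1 sequence, CACGTG and CATGTG are E-boxes, and TGANTCA is the AP-1 sequence. Both strands were searched, exact letters were required, and a base could count in more than 1 motif. Of 32817 RefSeq windows of 300 bases (250 before to 50 after a start site), 152 held the centre of a microglia-only site, from 141 sites. GAGGAAGT occurred in 23.7% of these windows, 3.87% of the 10606 windows with any microglial peak centre, 3.70% of the 108 windows with a shared site and 3.20% of all windows. For CACGTG the shares were 13.2% with a microglia-only site, 28.7% with a shared site, 10.9% with any microglial peak and 7.15% of all. CATGTG occurred in 15.8%, 12%, 7.91% and 14.2% in the same order, and TGANTCA in 11.2%, 7.41%, 4.70% and 7.81%. Within promoters, the letters of the PU.1 sequence were thus commoner at microglia-only sites and those of CACGTG at shared sites. These shares are not independent of the choice of sites. Shared sites had an oligodendrocyte peak by definition, while most microglia-only sites had none within 200 bp. Promoter windows with a microglial peak but no oligodendrocyte peak were not counted apart. A match is a description of letters, not a bound site, and these promoters hold few of the microglia-only sites.

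Microglial H3K27ac libraries held 12000879 to 15778229 tags, and microglial factor pools 27393762 to 43905485. Their input pools held 48984909 in WT and 40351089 in SgshKO. Pools differed between genotypes: 33% of SgshKO TFE3 tags lay in peaks against 20.7% in WT, and the SgshKO input was at 0 in 47.6% of all peaks and 31.5% of the microglia-only sites, against 4.06% and 1.20% in WT. The sort was checked by H3K27ac summed over promoter peaks of marker genes. For 9 of 10 microglial markers with such peaks the sum was 5716 to 7181 tags per 10M in WT and 4169 to 5820 in SgshKO microglial libraries, and the neuronal table held none of these peaks. Oligodendrocyte markers (9 of 17 with peaks) summed to 469 to 660 in WT and 290 to 362 in SgshKO microglia, against 8242 to 12454 in WT oligodendrocytes. Markers of border macrophages and monocytes (3 of 8) summed to 95.1 to 116 in WT and 131 to 175 in SgshKO. Neuronal markers (4 of 11) summed to 30.0 to 55.1 and 39.0 to 59.9, astrocyte markers (3 of 6) to 133 to 155 and 100.8 to 159.5, and those of neutrophils and lymphocytes (2 of 7) to 0 to 6.80 and 1.57 to 9.29. Sums of border-macrophage and oligodendrocyte markers did not overlap between genotypes, and their part in the results below was not tested.

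In WT, TFE3 had the highest median score at the microglia-only sites, 3.83, followed by MITF at 3.06 and TFEB at 2.72. It was highest over all microglial peaks as well, with WT medians of 0.79 for TFE3, 0 for MITF and 0.27 for TFEB. Peaks held 20.7% of the tags in the WT TFE3 pool, 10.7% in that of MITF and 9.46% in that of TFEB. Enrichment of each ChIP was not separated from binding, so the scores do not rank the factors by binding. TFE3 had the highest of the 3 scores at 76.2% of the sites and TFEB the lowest at 62.3%. The site with the highest mean score, at chr3:130873855-130874055 and 143.6 kb from Rpl34, a ribosomal protein gene, had 98.6 MITF, 98.7 TFEB and 160.2 TFE3 tags per 10M in WT over 1.02 of input. Next came a site at chr15:38644481-38644681, 17.3 kb before Atp6v1c1, which encodes a subunit of the proton pump of lysosomes, with scores of 5.23, 5.34 and 6.49. The other 8 of the 10 highest lay nearest Carlr, Fgfr1op, Tmem86a, Rbpj, 6430548M08Rik, Tnni2, Wdfy3 and Gm11110. Of these 10, only the sites of Wdfy3, an autophagy scaffold gene, and Tnni2, a troponin gene, lay within 1 kb of a start. In absolute tags the site nearest the non-coding gene Carlr, at chr2:18897979-18898179, was higher than these, with 466 for MITF, 235 for TFEB and 905 for TFE3 over 8.37 of input. Genes are named as the nearest start in the deposited annotation, which does not show that a site acts on them.

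At the threshold, the sites near Alox5ap, Rnf186 and Gm17745 were just inside, each with a TFEB score of 2.00. Just outside were peaks near Rhoh (TFEB score 1.9993), Fgd3 (TFE3 score 1.9985) and Zfp652 (TFEB score 1.9984).

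In the SgshKO pools, which the choice of sites did not use, median scores at the sites were 4.33 for MITF, 3.33 for TFEB and 5.33 for TFE3. Over all microglial peaks the same medians were 1.04, 0 and 2.21, and at shared sites 4.80, 3.93 and 5.65. All 3 factors scored at least 2 at 2421 sites (67.8%), 2 factors at 681, 1 factor at 308 and none at 159. Over all peaks, 20.7% met the 3-factor threshold in SgshKO and 4.77% in WT. TFE3 met it in SgshKO at 94.5% of the sites, MITF at 84.2% and TFEB at 71.6%, against 52.8%, 39.1% and 31.6% of all peaks. The order of the factors was the same as in WT, with TFE3 highest at 90.2% and TFEB lowest at 81.1% of the sites.

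The SgshKO scores depend on an input that held many zeros. With the WT input under both genotypes, an alternative chosen after seeing the data, 2093 sites (58.6%) met the 3-factor threshold in SgshKO, against 9.01% of all peaks, and the medians were 3.5, 2.56 and 4.51. The same rule applied to the SgshKO pools chose 13038 sites. Of these, 2365 were also chosen in WT, which is 18.1% of the SgshKO set and 66.3% of the WT set.

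**Figure D1:**
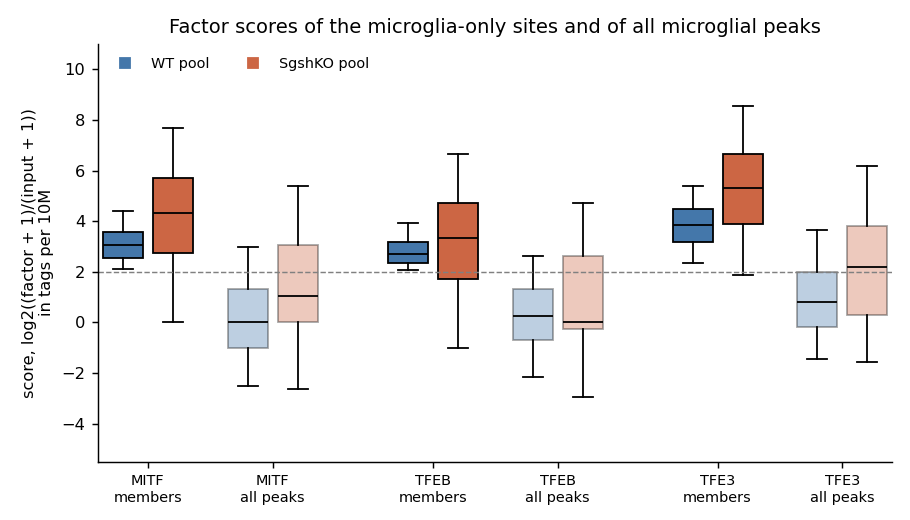
Factor scores (log2 of factor + 1 over input + 1, tags per 10M) of the 3569 microglia-only sites (solid) and of all 91770 microglial peaks (pale), WT pools in blue and SgshKO pools in orange. Boxes span the quartiles with the median, whiskers the 5th to 95th percentiles over sites, and the dashed line is the threshold of 2 that chose the sites in WT. SgshKO medians of the sites were 4.33, 3.33 and 5.33, above the all-peak medians of 1.04, 0 and 2.21.

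The pools themselves, scaled by the TMM method and without the input, were mostly lower or alike in SgshKO. At least 2-fold higher MITF in SgshKO was seen at 516 sites (14.5%, all peaks 25.5%) and at least 2-fold lower at 1126 (31.5%, all peaks 32.9%). For TFEB, 370 were higher (10.4%, all peaks 18.8%) and 1347 lower (37.7%, all peaks 41.3%). For TFE3, 396 were higher (11.1%, all peaks 16.3%) and 509 lower (14.3%, all peaks 22.4%). The median log2 ratio of SgshKO over WT was -0.29 for MITF, -0.56 for TFEB and -0.11 for TFE3, against 0, -0.43 and -0.14 over all peaks. The WT pools also chose the sites, so these ratios are not independent of the choice and nothing is read from their direction.

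Single sites differed widely between the pools. The extremes of the difference in mean score moved with the SgshKO input. Among the sites with the largest gain, those near Mir3971, Fam219a, Cd68 and Irgc1 had 0 tags of SgshKO input. The site at the Cd68 promoter, 0.098 kb before the start, had 221 (95% interval 204 to 239) MITF tags per 10M in WT and 586 (560.1 to 613) in SgshKO, with input of 31 (26.3 to 36.4) and 0 (0 to 0.914). Among those with the largest loss, the sites near Ppfibp2, Ccr7, Yes1 and Zhx2 had SgshKO input of 23.5, 20.1, 12.1 and 8.43, against 0.41 to 1.02 in WT. Near Ppfibp2, MITF went from 16.4 (12 to 22) in WT to 0 (0 to 1.14) in SgshKO, and near Ccr7, a chemokine receptor gene, TFEB went from 17.4 (13.6 to 21.8) to 0 (0 to 1.05).

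Sgsh itself held 1 microglia-only site, at chr11:119354906-119355106, 0.504 kb from its start. The WT pools gave 123 MITF, 97.8 TFEB and 338 TFE3 tags per 10M over 18.2 of input, and the SgshKO pools 455, 186 and 598 over 2.23. H3K27ac at this site was 66.4 and 102 in WT and 74.3 and 108 in SgshKO at 4 months, and 85.1 and 63.9 in WT and 95.9 and 109 in SgshKO at 8 months. WT and SgshKO libraries overlapped at 4 months, and the change over both ages did not pass the test (log2 0.29 ± 0.17 SE, limma FDR 0.241). A promoter signal does not check the deletion.

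Most microglia-only sites were far from promoters. Introns held 48.2% of them, intergenic sequence 40.3% and promoters 6.33%, against 56.5% in promoters for shared sites and 17.7% for all microglial peaks. Within 1 kb of a start site lay 309 sites (8.66%), against 60.7% of shared sites and 25.9% of all peaks. The median distance to a start was 17.2 kb, against 0.245 kb for shared sites and 8.67 kb for all peaks, and 21% were over 50 kb away. Another microglia-only site lay within 10 kb for 916 of them (25.7%). In all they were nearest to 2491 genes, 1825 of which had a single site. The shares and distances set against shared sites and all peaks are not independent of the choice of sites. Every shared site had an oligodendrocyte peak by definition, while most microglia-only sites had none within 200 bp. No comparison was made with only those microglial peaks that lacked an oligodendrocyte peak. Whether microglia-only sites lay farther from promoters than such peaks was therefore not tested.

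At 14 genes there were at least 6 sites. Nek6, encoding a mitotic kinase, and Runx1, a transcription factor of the blood and microglial lineage, had 9 each, which was 9 of 38 and 9 of 93 of their microglial peaks. Smad3, a mediator of TGF-beta signalling on which microglial identity depends, had 8 of 44. Gpr34, a microglial lysophosphatidylserine receptor gene, had the densest cover, with 6 of its 13 peaks. The others with 6 were Entpd1, Fli1, Maf, Mef2a, Rbpj, Ptgs1, Pik3ap1, Apbb1ip, Gm15326 and 4933433H22Rik.

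H3K27ac, which took no part in the choice, was higher in level and changed with genotype more often at these sites than over all microglial peaks. Levels are TMM-scaled tags per 10M in windows of 800 bp. The median site had 88.8 to 90.4 in the 4 WT libraries and 94.2 to 102 in the 4 SgshKO libraries, against 28.7 to 31.7 over all tested peaks. Of the 3569 sites, 3490 passed the filter on low values, out of 69663 peaks tested. A site was called where limma gave a false discovery rate (FDR, Benjamini-Hochberg, over all tested peaks) below 0.05.

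At 4 months, 797 of the 3490 sites were called, 609 higher in SgshKO (17.4%, all tested peaks 7.87%) and 188 lower (5.39%, all tested peaks 4.32%). Fewer sites were called without SgshKO replicate 1, SgshKO replicate 2 or WT replicate 1 of this age. Each of these fits left 1 library in a group, and the share called over all tested peaks fell too. At 8 months, 822 were called, 452 higher (13%, all tested peaks 6.87%) and 370 lower (10.6%, all tested peaks 6.25%). Without WT replicate 1 or 2 of this age fewer sites were called, and the share called over all tested peaks fell as well. Scaling by the library total moved the balance: 62.9% instead of 76.4% of calls were higher at 4 months, and 32.6% instead of 55.0% at 8 months. It moved the median log2 change over all tested peaks to -0.15 at 4 months (TMM 0.00) and to -0.25 at 8 months (TMM -0.03), so directions at 8 months hold relative to the other peaks only.

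Over both ages, 1303 sites were called, 767 higher (22%, all tested peaks 12.7%) and 536 lower (15.4%, all tested peaks 10.7%). With library totals there were 495 higher and 853 lower, 36.7% higher instead of 58.9%, with a median of -0.20 over all tested peaks. Among the called sites the median size was 0.78 on the log2 scale, against 0.93 among all called peaks. Changes of at least 2-fold were seen at 450 of the 1303 called sites and at 7360 of all 16310 called peaks. At shared sites, 46 of 237 tested were called, 32 higher and 14 lower. A difference between the 2 kinds of site was not tested.

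The direction was nearly always kept between ages: 486 sites were called at each age, 485 of them in the same direction, with 366 higher and 119 lower at both. The same count was not made over all tested peaks, so it is not read as a trait of these sites. Both SgshKO libraries lay above both WT libraries at each age for 800 sites (22.9%, all tested peaks 15%), of which 699 were called over both ages. Both lay below for 608 (17.4%, all tested peaks 13.6%), of which 443 were called.

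**Figure D2:**
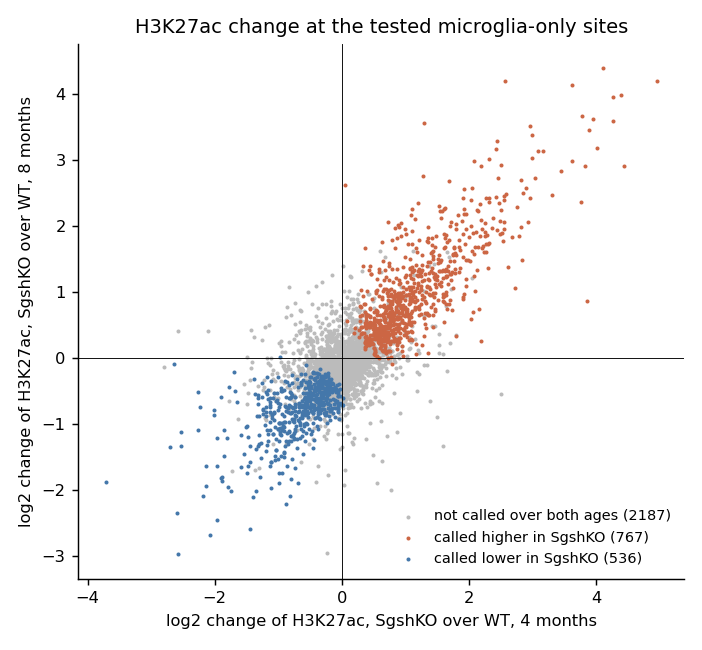
Log2 change of H3K27ac, SgshKO over WT, at 4 months (x axis) and 8 months (y axis) for each of the 3490 tested microglia-only sites, coloured by the call over both ages: 767 higher (orange), 536 lower (blue), 2187 not called (grey). Called sites lie mostly in the upper right and lower left of the plot.

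Level and place bear on how often a site is called. Sites over 1 kb from a start were compared with the other tested peaks in 4 equal bands of mean H3K27ac level, split at 12, 30.6 and 77.9 tags per 10M. In the lowest band 15.6% of 205 sites were called against 8.92% of other peaks, in the next 31% of 445 against 26.2%, and in the third 46.7% of 726 against 37.5%. In the highest band, which held 1813 of the sites, the shares were 39.1% and 39.0%. The larger share called at microglia-only sites was thus not seen among distal peaks of the highest level. Within 1 kb of a start, 0 of 6 sites were called in the lowest band, 42.9% of 28 against 10.5% of other peaks in the next, 32.7% of 55 against 14.5% in the third and 26.4% of 212 against 21.5% in the highest.

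No microglia-only site was called for the genotype-by-age interaction by limma, edgeR or DESeq2. In limma 293 of 3490 had an unadjusted p under 0.05, against 4507 of 69663 tested peaks. Over all tested peaks 0% were called. Between WT at 8 and at 4 months limma, edgeR and DESeq2 also called 0 sites, and 0% of all tested peaks. The unadjusted limma p was under 0.05 at 244 of 3490 sites and at 4129 of 69663 tested peaks. Without WT 4-month replicate 2, which left 1 library in its group, some sites were called for both contrasts, as were other tested peaks. The median log2 value was then -0.17 at the sites and -0.07 over all tested peaks for the interaction. For age in WT it was 0.03 and 0.01. In unprecipitated input chromatin, the genotype contrast over both ages called 0 of 1944 tested sites with limma, edgeR and DESeq2. Over all 39323 tested peaks 0% were called. The unadjusted limma p was under 0.05 at 45 of the sites and at 1055 of all tested peaks.

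The sites with the strongest evidence of higher H3K27ac lay near genes of several functions. They were picked by smallest p among called sites whose genotypes did not overlap at either age. The lack of overlap is therefore part of the choice and not a further result. In an intron of Hpse, encoding heparanase, the enzyme that cuts heparan sulfate chains, at chr5:100710140-100710340, WT libraries had 4.80 and 3.88 at 4 months and 6.73 and 7.18 at 8 months. SgshKO libraries had 164 and 164 at 4 months and 139 and 153 at 8 months. Every SgshKO library was far above every WT library, and the change over both ages was log2 4.58 ± 0.24 SE (limma FDR 9.99e-17, n = 4 libraries per genotype). At this site WT pools had 4.38 (2.26 to 7.65) MITF and 40.1 (33.8 to 47.2) TFE3 tags per 10M, and SgshKO pools 334 (315 to 355) and 514 (493 to 536).

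Near Rap2b, a small GTPase gene, the site at chr3:61415966-61416166 had 15.2 and 12.8 in WT and 215 and 227 in SgshKO at 4 months, and 17.1 and 14.4 in WT and 211 and 159 in SgshKO at 8 months. The change over both ages was log2 3.68 ± 0.19 SE (limma FDR 9.99e-17). A pair of sites near Coro1c, encoding an actin-binding coronin, rose by log2 2.09 ± 0.13 and 2.76 ± 0.17. The first, at chr5:113945270-113945470, had 71.2 and 83.2 in WT and 288 and 300.2 in SgshKO at 4 months. Near Plekhm2, which links lysosomes to kinesin motors, the site at chr4:141670381-141670581 had 47.2, 33.3, 41.0 and 34.5 in the WT libraries and 241, 247, 210 and 221 in the SgshKO libraries (log2 2.54 ± 0.16). Rxra, encoding the retinoid X receptor that pairs with lipid-sensing receptors, had an intronic site that rose from 53.6 to 99.3 in WT to 298 to 346 in SgshKO. The other 4 lay near 1110034G24Rik, Mir7237, Rbpj and Slc25a34, with log2 changes of 3.79, 3.60, 2.47 and 2.17. All 10 had limma FDR of at most 1.54e-14 over both ages. In tags per 10M without TMM scaling, their SgshKO factor pools were above the WT pools for every factor. On the same scale this was not mirrored at all of the lower sites described next.

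At the 10 lower sites, log2 changes over both ages were -1.21 to -2.78, against 2.09 to 4.58 at the 10 higher sites. The sizes of all higher and all lower calls were not compared. In an intron of Mroh2a at chr1:88227176-88227376, 0.256 kb from a start, WT libraries had 239 and 226 at 4 months and 241 and 220 at 8 months. SgshKO libraries had 95.7 and 75.7 at 4 months and 75.7 and 109 at 8 months, below every WT library (log2 -1.39 ± 0.14 SE, limma FDR 3.10e-10). MITF there was 77.8 (67.7 to 88.9) in the WT pool and 32.1 (26.2 to 38.9) in the SgshKO pool. The intronic site of Prkcq, encoding protein kinase C theta, at chr2:11239698-11239898, had 96.8, 139, 115 and 94.1 in WT and 30.9, 20.9, 25.95 and 27.2 in SgshKO (log2 -2.04 ± 0.20). Near Tlr5, the gene of the flagellin receptor, the site at chr1:182922962-182923162 had 98.4, 104, 96.1 and 98.4 in WT and 28.7, 8.61, 14.4 and 23.3 in SgshKO (log2 -2.47 ± 0.26). Lack of overlap at each age was part of how these lower sites were picked, too.

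The site near Ccr7, whose SgshKO factor scores were among the lowest, had 47.2, 52.7, 56.9 and 55.3 in WT and 13.3, 9.23, 9.37 and 6.80 in SgshKO (log2 -2.37 ± 0.28 SE, limma FDR 2.35e-08). The other 6 of the 10 lay near Khdrbs3, F630206G17Rik, Trp53i11, Celf4, Erh and Gm33619, with log2 changes of -1.37, -1.21, -2.78, -1.93, -1.23 and -1.26. All 10 had limma FDR of at most 2.35e-08. In tags per 10M without TMM scaling, the factor pools did not follow one direction at these 10. Near Mroh2a, Tlr5, Gm33619 and Ccr7 the SgshKO pool was below the WT pool for every factor. At the others at least 1 SgshKO pool was above. Examples were MITF near Khdrbs3 (29.9 in WT, 95.1 in SgshKO) and Celf4 (35.8 and 61.1), and TFEB near Trp53i11 (17.4 and 36.1). So was TFE3 near F630206G17Rik (189 and 299.5), Erh (95.2 and 122) and Prkcq (86.3 and 107). The TMM factor was 1.16 for the WT and 1.93 for the SgshKO TFE3 pool. After TMM scaling, TFE3 near F630206G17Rik, Erh and Prkcq was lower in SgshKO, and MITF near Celf4 was nearly level. MITF near Khdrbs3 and TFEB near Trp53i11 stayed higher in SgshKO. None of these 20 calls was lost in any of the 280 values computed for them under other settings, which included each left-out library and scaling by the library total (highest FDR 1.31e-06). Being the smallest p-values, they stand at the extreme of the 1303 called sites.

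**Figure D3:**
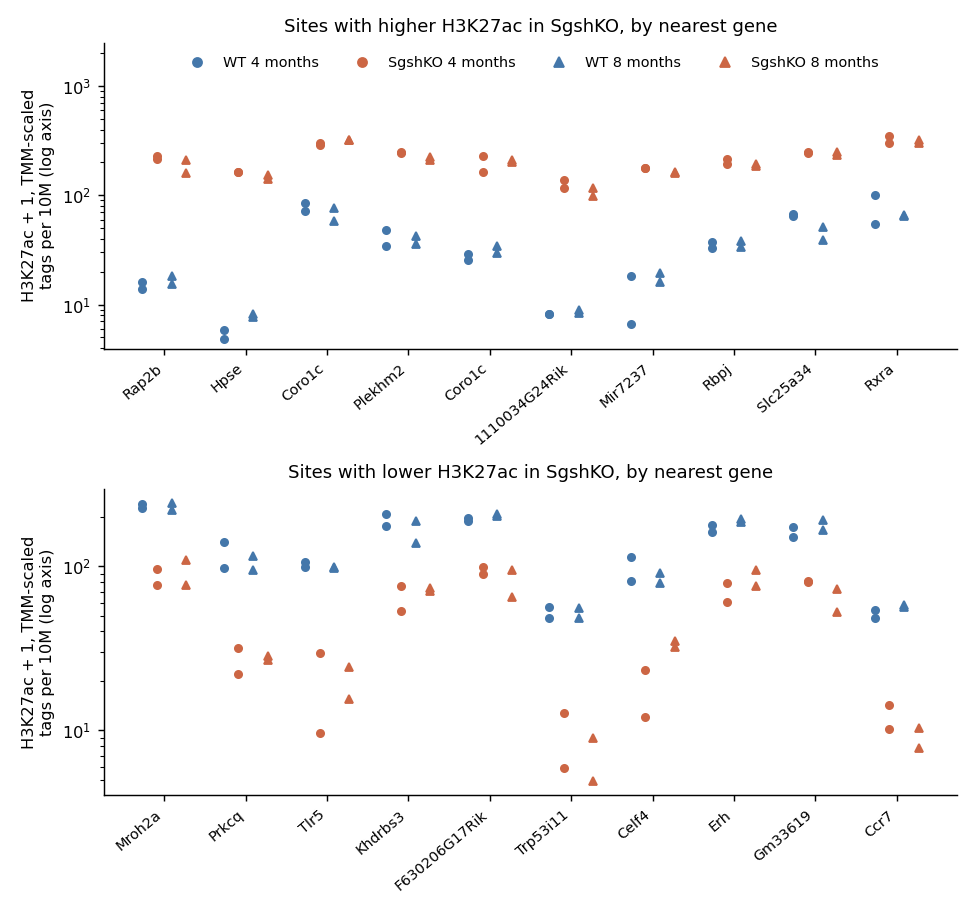
H3K27ac + 1 (TMM-scaled tags per 10M, log axis) in each microglial library at the 10 higher and the 10 lower sites, by nearest gene, WT in blue and SgshKO in orange, circles at 4 and triangles at 8 months. At each site the 4 SgshKO libraries lie apart from the 4 WT libraries, by most near Hpse (3.88 to 7.18 in WT, 139 to 164 in SgshKO). No overlap of the genotypes at each age was part of the choice of these sites.

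Genes with many sites differed in how these behaved. All 6 sites near Rbpj, the transcription factor of Notch signalling, rose over both ages, with log2 changes of 0.77 to 2.47 and a median of 1.99. With library totals, 1 of them, at chr5:53539824-53540024, had limma FDR 0.0608, and without WT 8-month replicate 2 it had 0.0764. Near Nek6, 5 of 9 sites rose and none fell, and near Runx1 4 rose and 1 fell. Near Smad3, 3 of 8 fell and none rose. None of the 6 sites near each of Gpr34, Maf, Fli1, Mef2a, Pik3ap1 and Ptgs1 was called, with Gpr34 changes of -0.16 to 0.01. Sites of 1 gene share their region and are not independent.

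By gene list, the sites were most frequent near genes of microglial identity and of innate immunity. They were 56 of the 452 microglial peaks (12.4%) nearest the 20 homeostatic microglial genes, each of which had at least 1, and 51 of 424 (12%) nearest receptors of phagocytosis and innate immunity and their signalling. The share was 8.86% (41 of 463) for lysosomal enzymes and membrane proteins, 8.74% for cholesterol and lipid handling, 8.33% for the V-ATPase proton pump and 7.45% for genes of disease-associated microglia. It was 6.66% for myeloid transcription factors, 4.08% for the MiT/TFE and mTORC1 circuit and 2.86% for autophagy, against 3.89% over all microglial peaks. Of all 3569 sites, 240 (6.72%) were nearest a gene on the 9 lists. Some genes stand on more than 1 list, such as Ctsb, Ctsd and Lipa. The ranking of lists is not independent of the choice of sites. For 3461 of the 3569 sites no oligodendrocyte peak lay within 200 bp, while 28.2% of all microglial peaks had one. Genes open in both cell types therefore had fewer peaks that could be chosen, and shares among peaks without an oligodendrocyte peak were not computed.

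**Figure D4:**
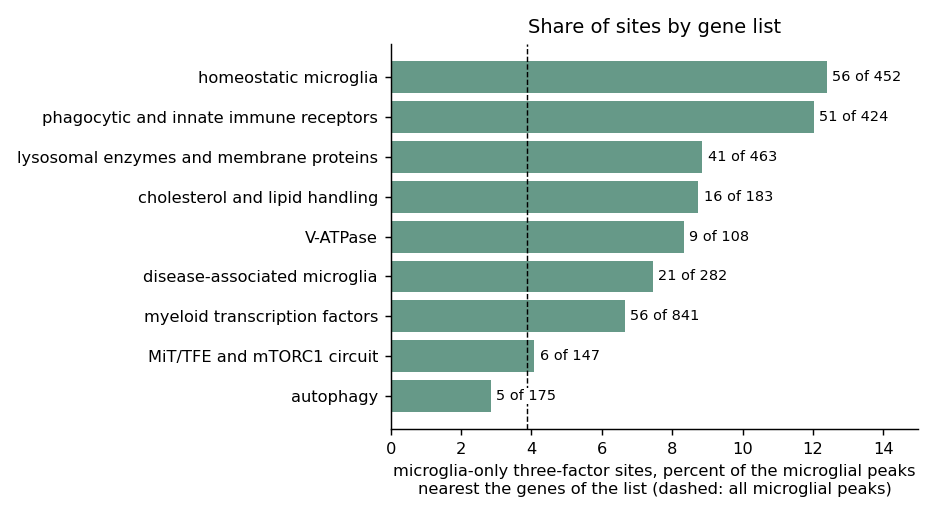
Microglia-only sites as a percent of the microglial peaks nearest the genes of each list (x axis), with their number of all peaks beside each bar. The dashed line is the share over all microglial peaks, 3.89%. The share runs from 2.86% for autophagy to 12.4% for homeostatic microglial genes.

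Among lysosomal enzymes and membrane proteins, 8 of the 41 sites rose over both ages and 4 fell, with a median log2 change of 0.02 against -0.02 over all tested peaks. Over all tested peaks 12.7% rose and 10.7% fell, shares that stand behind each list below. Over all 430 tested peaks of the lysosomal list, 108 rose and 33 fell, with a median of 0.17. With library totals the median at the 41 sites was -0.17, with 3 higher and 12 lower.

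Lipa, encoding lysosomal acid lipase, which frees cholesterol from its esters, had an intronic site at chr19:34515765-34515965 that rose. It had 107, 96.0, 116 and 95.5 in WT and 161, 200.55, 156 and 188 in SgshKO (log2 0.76 ± 0.14 SE, limma FDR 4.54e-05), with no overlap. The intronic site of Ctsb, encoding cathepsin B, was called lower (log2 -0.31 ± 0.10, FDR 0.0231), and this call was lost without any of 5 libraries, with FDR up to 0.149. Sites of Ctsh and Ctsd, which encode cathepsins, did not pass the test (log2 0.25 and 0.12).

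Of the 9 V-ATPase sites, 3 rose and 2 fell (median -0.04, with library totals -0.24, 2 higher and 3 lower). Over all 100 tested peaks of the list, 37 rose and 9 fell, with a median of 0.34. Near Atp6v1c1, at the second highest WT score of all sites, H3K27ac was 223 and 190 in WT and 359.9 and 346 in SgshKO at 4 months, and 224 and 215 in WT and 306 and 369 in SgshKO at 8 months, with SgshKO above WT throughout (log2 0.69 ± 0.10 SE, limma FDR 1.07e-06). Near Atp6v0c, encoding the proton-carrying ring of the pump, the site at chr17:24171791-24171991 rose by log2 0.83 ± 0.11 (FDR 1.13e-07). The site nearest Atp6v0a2, encoding a membrane subunit, fell (log2 -1.20 ± 0.26, FDR 5.03e-04), from 34.4, 43.8, 53.9 and 40.9 in WT to 24.3, 21.5, 15.9 and 12.6.

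The MiT/TFE and mTORC1 circuit had 6 sites, of which 2 rose and 1 fell (median 0.28, with library totals 0.08, 1 higher and 1 lower). Over all 132 tested peaks of the list, 55 rose and 7 fell, with a median of 0.45. Fnip2 encodes a partner of folliculin, which sends TFEB and TFE3 to the cytoplasm through the Rag GTPases. Its intronic site at chr3:79539735-79539935 had 23.2 and 28.9 in WT and 146 and 152 in SgshKO at 4 months, and 31.8 and 20.8 in WT and 140 and 132 in SgshKO at 8 months. SgshKO was far above WT at each age (log2 2.42 ± 0.19 SE, limma FDR 1.37e-12). MITF there was 65.3 (56.1 to 75.7) in WT and 573.5 (548 to 600.2) in SgshKO, and TFE3 85.4 (76.1 to 95.6) and 1051 (1021 to 1082). The site of Rragc, a Rag GTPase gene, did not pass the test (log2 0.32, FDR 0.0741). That nearest Lamtor3, a subunit gene of the complex that anchors them, was called lower (log2 -0.42, FDR 0.00834), but not without SgshKO 4-month replicate 1 (FDR 0.143) or WT 4-month replicate 1 (FDR 0.0512). Of 5 autophagy sites, 2 rose and none fell (median 0.11, with library totals -0.08 and none called), against 20 higher and 14 lower of 146 tested peaks of the list (median -0.05). The 2 were at Vps18 and at 1 of the 2 Vps33a sites, both tethering genes of lysosomal fusion. The Vps18 call was lost without WT 4-month replicate 1 (FDR 0.0613), and the Vps33a call in 7 of the 8 fits without 1 library (FDR up to 0.394).

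Genes of disease-associated microglia, a state described in neurodegeneration, had 21 sites, of which 10 rose and 2 fell (median 0.22, with library totals 0.03 and 6 higher, 5 lower). Over all 259 tested peaks of this list, 151 rose and 3 fell, with a median of 0.67. The strongest bound site of Cd9, a tetraspanin gene, at chr6:125471467-125471667, was one of the 2 that fell (log2 -0.30, limma FDR 0.0292), and lost its call without each of the 8 libraries in turn. A second site of Cd9, 15.2 kb before its start, rose from 165, 159, 174 and 187 in WT to 225, 254, 239 and 234 in SgshKO (log2 0.47 ± 0.11 SE, FDR 0.00112), though not with library totals (FDR 0.180). Both sites of Tyrobp, the signalling partner of TREM2, missed the threshold (log2 -0.22 and -0.08), the first of which was called lower with library totals (log2 -0.41, FDR 0.0292).

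At the homeostatic genes, 3 of 56 sites rose and 15 fell (median -0.16, with library totals -0.35, 1 higher and 24 lower), and over all 443 tested peaks of the list 20 rose and 143 fell, with a median of -0.24. At the promoter of Selplg, encoding a selectin ligand, H3K27ac was 377 and 404 in WT and 242 and 290.4 in SgshKO at 4 months, and 409 and 330 in WT and 227 and 251 in SgshKO at 8 months. All SgshKO libraries were below all WT libraries (log2 -0.59 ± 0.10 SE, limma FDR 1.08e-05). The site near the start of Csf1r, the receptor microglia need to survive, fell by 0.32 ± 0.08 on the log2 scale (FDR 0.00254). The promoter of Siglech, a sialic acid receptor gene, was called lower (log2 -0.41 ± 0.11, FDR 0.00377), but not without SgshKO 4-month replicate 1 (FDR 0.0544). A site near Tmem119, a microglial marker, was called lower (log2 -0.25, FDR 0.0411), and lost its call in 7 of the 8 fits without 1 library (FDR up to 0.202) and with DESeq2 (FDR 0.0621). Promoter sites of P2ry12 and Cx3cr1, receptors of microglial process movement, did not pass the test (log2 -0.25 and -0.04). P2ry12 was called lower with library totals (log2 -0.45, FDR 0.0105), without SgshKO 8-month replicate 2 (FDR 0.0090) and without WT 4-month replicate 2 (FDR 0.0125). In the same libraries the summed marker levels given above were lower in SgshKO for oligodendrocyte genes and higher for border-macrophage genes, and their part in these changes was not tested.

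Cholesterol and lipid handling had 16 sites, of which 8 rose and 1 fell (median 0.39, with library totals 0.20, 4 higher and 1 lower). Over all 164 tested peaks of the list, 87 rose and 13 fell, with a median of 0.69. In Ppard, a lipid-sensing nuclear receptor gene, the intronic site at chr17:28247712-28247912 rose from 109.6, 92.1, 90.6 and 76.8 in WT to 158, 169, 187 and 209.7 in SgshKO (log2 0.97 ± 0.14 SE, limma FDR 7.09e-07). The intronic site of Abcg1, a cholesterol exporter gene, fell, from 159, 170, 178 and 195 to 102, 95.4, 112 and 111 (log2 -0.74 ± 0.13, FDR 3.24e-05), while the site 19.1 kb before its start did not pass the test. Soat1, encoding the enzyme that stores cholesterol as ester, had a site called higher (log2 0.59 ± 0.18, FDR 0.0142), but not with library totals (FDR 0.173), without SgshKO 4-month replicate 2 (FDR 0.1012) or without WT 8-month replicate 1 (FDR 0.105).

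Phagocytic and innate immune genes had 51 sites, with 8 higher and 11 lower (median -0.06, with library totals -0.25, 5 higher and 15 lower). Over all 408 tested peaks of the list, 50 rose and 51 fell, with a median of -0.04. Itgb2, the beta chain of the complement receptor CR3, had an intronic site at chr10:77544977-77545177 that rose (log2 0.76 ± 0.13 SE, limma FDR 2.09e-05), from 118, 105, 102 and 144 in WT to 214, 227, 182 and 172 in SgshKO. The promoters of the C1q chains, shown above in part, were strongly bound, with 694, 709 and 389 TFE3 tags per 10M in WT at C1qb, C1qc and C1qa. C1qb was called lower (log2 -0.31 ± 0.09, FDR 0.0148), but not without SgshKO 4-month replicate 1 (FDR 0.119), SgshKO 8-month replicate 1 (FDR 0.0903) or WT 8-month replicate 2 (FDR 0.0867). C1qc and C1qa did not pass the test (log2 -0.05 and -0.12), nor did the Cd68 promoter (log2 -0.05 ± 0.14, FDR 0.857). Its levels were 115, 133, 135 and 132 in WT and 120.0, 148, 138 and 98.1 in SgshKO, which overlapped. At the Nlrp3 promoter shown above, levels were 402, 367, 279 and 254 in WT and 215, 312, 247 and 252 in SgshKO (log2 -0.33 ± 0.10, FDR 0.0159), a call lost without SgshKO 4-month replicate 1 (FDR 0.272), WT 4-month replicate 1 (FDR 0.0637) or WT 8-month replicate 1 (FDR 0.0695).

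Myeloid transcription factors had 56 sites, 5 higher and 11 lower (median -0.12, with library totals -0.31, 4 higher and 21 lower). Over all 724 tested peaks of the list, 62 rose and 94 fell, with a median of -0.10. The 6 with the highest WT scores, at Mef2a in 2 places, Nfkb1, Ikzf1, Fli1 and Maf, had log2 changes of -0.28 to 0.18 and did not pass the test. With library totals, both Mef2a sites and that of Nfkb1, a subunit gene of NF-kappaB, were called lower, with FDR 0.0202, 0.0203 and 0.0186. Across the 9 lists, library-total scaling turned the sign of the median for lysosomal and autophagy genes.

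The SgshKO factor pools, which took no part in the choice, were highest at the sites with higher H3K27ac. Median SgshKO scores were 5.18 for MITF, 4.03 for TFEB and 6.11 for TFE3 at the 767 sites with higher H3K27ac over both ages. At the 2187 sites not called they were 4.29, 3.25 and 5.28, and at the 536 with lower H3K27ac 3.52, 2.74 and 4.79. All 3 factors scored at least 2 in SgshKO at 83.1% of the sites with higher, 66.8% of those not called and 56.9% of those with lower H3K27ac. The WT scores, which chose the sites, stood in the same order, with median TFE3 scores of 4.13, 3.81 and 3.56. The median log2 ratio of the SgshKO over the WT pool was 0.75 for MITF, 0.41 for TFEB and 0.68 for TFE3 at the sites with higher H3K27ac. It was -0.38, -0.66 and -0.20 at those not called and -1.25, -1.41 and -0.69 at those with lower H3K27ac. These ratios contain the WT pools used in the choice and rest on 1 pool per factor and genotype, so they are given as a description, with no test. They also went with the H3K27ac change over all 69663 tested peaks, with Spearman correlations of 0.23 for MITF, 0.20 for TFEB and 0.33 for TFE3. Across the 3490 tested microglia-only sites these were 0.53, 0.48 and 0.57. For the difference in mean score, which includes the input, the correlation was 0.24 across these sites and 0.13 over all tested peaks. The SgshKO MITF pool was at 0 in 33.4% of all microglial peaks and 3.36% of the sites. For TFEB the shares were 46.0% and 9.13%, and for TFE3 14.1% and 0.39%. The part of these zeros in the lower correlations over all peaks was not tested.

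**Figure D5:**
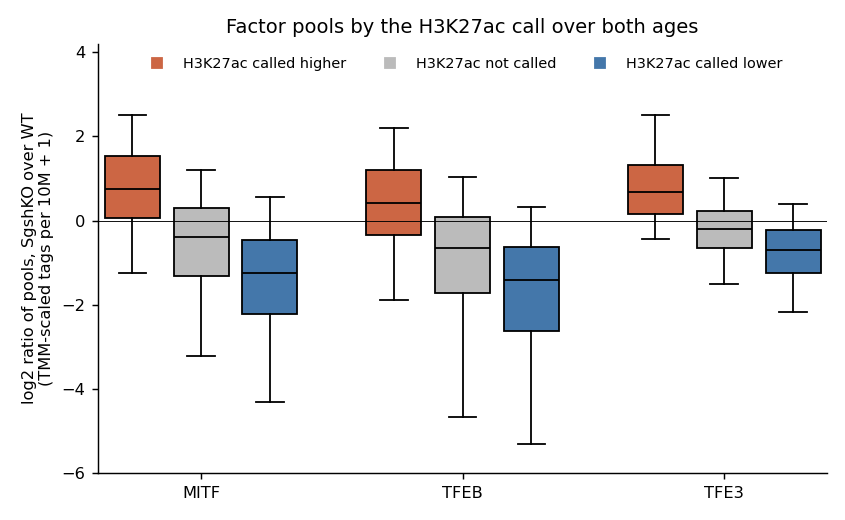
Log2 ratio of the SgshKO over the WT pool (y axis, TMM-scaled tags per 10M + 1) for each factor at the tested microglia-only sites, grouped by the H3K27ac call over both ages: higher (orange, 767), not called (grey, 2187) and lower (blue, 536). Boxes are quartiles with the median, whiskers the 5th to 95th percentiles over sites. Medians fall from 0.75 to -1.25 for MITF, 0.41 to -1.41 for TFEB and 0.68 to -0.69 for TFE3.

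In the other cell types, H3K27ac at these sites was seldom measured. A neuronal peak centre lay within 200 bp of 372 sites (10.4%), against 75.7% of shared sites and 31.1% of all microglial peaks. At those 372 the library medians were 20.1 to 23.1 tags per 10M in neurons and 90.0 to 113 in microglia, and all WT microglial libraries were above all WT neuronal libraries at 256 and below at 42. At the 108 sites with an oligodendrocyte peak, medians were 15.8 to 22.3 in oligodendrocytes and 69.2 to 83.7 in microglia, with 66 above and 14 below. At shared sites oligodendrocyte medians were 44.3 to 63.1 and microglial medians 73.9 to 83.7. Levels of different tables were normalized separately, so they were not tested against each other.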

How the data were processed

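The deposited tables hold signal, as tags in a library scaled to 10M, within 800 bp (H3K27ac) or 200 bp (factors) around open-chromatin peaks of the cell type, per the file headers, with the authors' factor libraries merged by factor and genotype. Bowtie2, HOMER, DESeq2 and mm10 are named, without versions, in the submitters' processing notes. Each of the 52 value columns matched the labels.

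Sites were matched to the H3K27ac peak with its centre within 200 bp. The 8 microglial H3K27ac libraries were fitted together as 4 groups of 2. After the filterByExpr filter and TMM scaling of edgeR (4.0.16), log2 values with a pseudocount of 1 entered limma (3.58.1, mean trend, two-sided test), with Benjamini-Hochberg adjustment over all tested peaks. Changes are on that scale and understate those of low sites. Low values of the deposited signal (above 0 and up to 200 tags) were whole multiples of 1 tag, within at most 0.0279 tags, for 100% of values in the ChIP libraries, so tags could be recovered for edgeR and DESeq2 (1.42.0) as alternatives. edgeR then called 820, 828 and 1295 sites at 4 months, 8 months and over both ages. The script was tested on simulated data.

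Named sites were those with the 10 highest WT scores, the 10 higher and 10 lower in H3K27ac with the smallest p whose genotypes did not overlap, the leading sites of each gene list, those at the threshold, and the 5 at either end of the score difference between genotypes. Members, lists and tests were chosen with earlier results of these data known. Genes with many sites, Nfkbid and the sites of list genes within 1 kb of a start fall outside this rule and were chosen after their values were seen. No genome was used: sequences and motifs come from the RefSeq promoter windows (GRCm38.p6). A few sites that this rule names are not reported here.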

Additional observations from a re-analysis of the deposited data

Results flagged for a closer look

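The site at the promoter of Nfkbid, which encodes an atypical inhibitor of NF-kappaB, at chr7:30422167-30422367, was the only one of the 486 sites called at both ages that moved in opposite directions. It was noted because its genotype effects differed in sign, higher in SgshKO at 4 months and lower at 8 months. H3K27ac was 120.0 and 161 in WT and 209 and 209 in SgshKO at 4 months, and 334 and 184 in WT and 164 and 153 in SgshKO at 8 months. The log2 change was 0.58 at 4 months (limma FDR 0.0399) and -0.64 at 8 months (limma FDR 0.0220). The difference between ages was -1.22, with an unadjusted limma p of 6.69e-05 and an FDR of 0.747 over all tested peaks, so it did not pass the correction. WT replicate 1 at 8 months had the highest value of the 8 libraries.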

How the results depend on the processing

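Counts of called sites depended most on single libraries and on the score threshold. A fit without 1 library leaves 1 in its group, and the share called over all tested peaks moved in such fits too. Leaving out each library in turn gave 462 to 863 called sites at 4 months, 419 to 916 at 8 months, 0 to 12 for the genotype-by-age interaction and 0 to 30 for age in WT. Over both ages it gave 1022 to 1261. Without WT 8-month replicate 2, 1 site was called for the interaction and 1 for age in WT. A score threshold of 2.5 or 1.5 gave 1826 or 6279 sites, with 455 or 1273 called at 4 months, 449 or 1368 at 8 months and 701 or 2175 over both ages, and with 1245 or 4163 meeting the threshold in SgshKO. These counts follow the number of sites. Library-total scaling gave 531 at 4 months.

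Median SgshKO scores at thresholds of 2.5 and 1.5 were 4.73 and 3.88 for MITF, 3.68 and 2.95 for TFEB, and 5.74 and 4.87 for TFE3. TMM scaling of the pools gave 4.14, 3.57 and 4.40, the WT input under both genotypes 3.5, 2.56 and 4.51, and a pseudocount of 0.5 gave 3.45 for TFEB and 5.47 for TFE3. Within 3 kb of a start site lay 16.8% of sites. DESeq2 called 677, 681 and 1115 sites at 4 months, 8 months and over both ages. With library totals more sites were lower than higher at 8 months (246 higher, 508 lower) and over both ages (495 higher, 853 lower), the opposite of the balance with TMM, and the medians of the lysosomal and autophagy lists turned negative. No called site named in the text changed direction in a setting run.

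Replicate numbers are shared between groups in the labels, but nothing in them pairs samples, and deviations of same-numbered libraries correlated by -0.0199 to 0.0074. With the replicate number as a block, 803 sites were called at 4 months, 845 at 8 months, 1313 over both ages, and 0 for the interaction, for age in WT and for the input. The share of sites with CACGTG was not run, since no genome was used. For contrasts that use all 4 groups, a fit of the compared groups alone is the same fit. Factor pools have no replicates, so depth limits them to counting error, and zeros in the SgshKO input limit its scores.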
